A study of Mus musculus with 4 samples.

Results

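The proteasome genes of mouse liver monocytes and macrophages were compared between a methionine/choline-deficient diet (MCD) and a normal control diet (NCD). The set comprised the 50 genes, of 27998 counted in all libraries, whose symbols begin with Psma, Psmb, Psmc, Psmd, Psme, Psmf or Psmg and a number, without pseudogene names ending in -ps. It included Psmc3ip and Psme2b, which match by symbol and are not proteasome subunits of the standard complexes. The series holds 4 libraries, 2 from each diet, made from male wild-type C57BL/6 mice that were 8 weeks old at purchase and ate their diet for 6 weeks. Live cells were sorted from liver as CD45 positive, Ly6G negative and CD11b intermediate, and F4/80 is given as low in the series description and as high in the sample labels. Single cells were read with the 10x Genomics 3' v3 kit, which counts unique molecular identifiers (UMIs, one tag per captured RNA molecule) near the 3' end. The labels do not say how many mice went into each library, so the spread between libraries may be technical. Diet cannot be told apart from any batch that the 2 libraries of a diet shared.

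The 20S proteasome is a barrel that cuts proteins tagged with ubiquitin. Its outer rings are built of alpha subunits (Psma genes), and its inner rings of beta subunits (Psmb genes), of which Psmb6, Psmb7 and Psmb5 carry the caspase-like, trypsin-like and chymotrypsin-like activities. The 19S cap, made of the ATPases Psmc1 to Psmc6 and of the non-ATPase Psmd subunits, recognises, unfolds and threads the substrate. In cells exposed to interferon gamma the catalytic subunits are replaced during assembly: Psmb9 takes the place of Psmb6, Psmb10 that of Psmb7 and Psmb8 that of Psmb5. The resulting immunoproteasome, often with the PA28 cap of Psme1 and Psme2, favours peptides suited to MHC class I molecules. Myeloid cells express it without stimulation. Outside the interferon system, the factor NRF1 (gene Nfe2l1) raises standard proteasome genes when proteasome activity falls short, through elements of the antioxidant response type.

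Cells were grouped with all 50 genes left out of the clustering. The main comparison summed the cells of clusters named for Ly6Chi monocytes, Ly6Clo monocytes or macrophages, called here the union, with 657 and 688 cells in the NCD libraries and 1558 and 1712 in the MCD libraries. Within each class the diets were in separate clusters: clusters 3 (NCD), 1 and 7 (MCD) held most Ly6Chi-like cells, and clusters 9 (NCD) and 8 (MCD) most Ly6Clo-like cells. Cluster 7 held 218 and 395 MCD cells, none from NCD, and was led by inflammatory genes such as Il6, Cxcl2 and Saa3. Unnamed interferon-rich clusters, led by genes such as Cxcl9 and Ifit genes, were not in the union. They held 221 and 146 cells in NCD and 66 and 85 in MCD. Kept cells had a median of 2173 and 2256 UMIs in NCD against 12038 and 12298 in MCD. Barcodes with over 10% mitochondrial UMIs, which were left out, made up 37.1% and 33.5% in NCD against 11.6% and 9.38% in MCD. Summed over the neutrophil markers, the union of NCD replicate 1 stood at 5642 in counts-per-million units (CPM) against 167 to 243 in the other libraries, none of the 10 markers being 0 in all libraries. The summed hepatocyte markers stood at 84.9 to 92.1 CPM in NCD and 210.1 to 225 in MCD. The summed C1q macrophage markers stood at 2234 and 1911 CPM in NCD and 4557 and 5559 in MCD, and those of lipid-associated macrophages at 853 and 841 in NCD and 3277 and 3013 in MCD. Kupffer cell markers stood at 55.5 and 183 in NCD and 5.97 and 8.10 in MCD. The C1q and lipid-associated macrophage cluster gave 7 and 7 cells to the NCD unions and 513 and 377 to those of MCD. The part of depth, cell quality and these markers in the results was not tested, except where a value without a library or at equal depth is given. The general leukocyte and macrophage genes Ptprc, Csf1r and Adgre1 were detected in the union of every library.

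Stretches of DNA before the RefSeq starts of 4 catalytic subunit genes are shown to set the standard subunits Psmb5 and Psmb6 beside the interferon-inducible Psmb8 and Psmb10. They were chosen after the matches and the fold changes were seen. RefSeq start sites on GRCm38.p6 were found for 42 of the 50 genes, and the 250 bases before each start were searched on both strands for 3 motifs, without regard to overlap between them. Capitals mark the match.
Psmb5, minus strand, chr14:54618023-54618245: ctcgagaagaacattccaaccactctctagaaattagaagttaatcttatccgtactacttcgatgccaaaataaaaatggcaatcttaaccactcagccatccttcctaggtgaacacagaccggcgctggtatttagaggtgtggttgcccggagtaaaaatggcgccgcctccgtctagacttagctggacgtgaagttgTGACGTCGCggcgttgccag
Psmb6, plus strand, chr11:70525107-70525356: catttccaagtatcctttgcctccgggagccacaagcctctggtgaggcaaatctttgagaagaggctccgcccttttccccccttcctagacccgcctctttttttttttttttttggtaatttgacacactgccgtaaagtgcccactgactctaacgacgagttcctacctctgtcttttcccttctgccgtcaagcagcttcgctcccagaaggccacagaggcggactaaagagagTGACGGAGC
Psmb8, plus strand, chr17:34198088-34198116: tcctccgctgTTCCCAGAAgatgcccccc
Psmb10, minus strand, chr8:105938445-105938642: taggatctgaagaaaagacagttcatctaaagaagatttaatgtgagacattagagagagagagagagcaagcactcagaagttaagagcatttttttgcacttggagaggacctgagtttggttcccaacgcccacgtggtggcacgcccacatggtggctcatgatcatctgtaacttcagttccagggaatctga
The letters TGACNNNGC, of the antioxidant response type, began 47 bases before the start of Psmb5 and 9 bases before that of Psmb6. Of the 42 genes, 5 held them (11.9%), against 11.5% of the same windows of 27025 genes: Psmb5, Psmb6, Psmc6, Psmd9 and Psmd12. The gamma-activated-site letters TTCNNNGAA were found in Psmb8, 97 bases before the start, and in Psmg1, which is 4.76% of the 42 genes against 8.13% of all. The interferon-response letters, GAAA, any 2 bases and GAAA again, were found in Psmb3, Psmd4 and Psmd9, 7.14% against 3.46% of all. None of the 3 motifs was found in the Psmb10 window. Of Psmb5 and Psmb10, parts of the window that the GENCODE annotation gives as exon are not shown. The whole Psmb8 window, 250 bases, is exon in that annotation, which starts the gene further upstream, at position 34197721 of chromosome 17. The printed Psmb8 match is therefore exonic there, and only it and its neighbouring bases are shown.

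In the union the proteasome took a larger share of the message under MCD. The 50 genes together made up 0.350% and 0.338% of UMIs in NCD and 0.547% and 0.502% in MCD. Of the 49 genes tested (Psmb11, the thymus-specific catalytic subunit, had 0 to 2 UMIs per library), 23 rose (46.9%), where 20.1% of all 11129 genes rose, and 2 fell (4.08%), where 17.6% of all genes fell. A rise or fall is an adjusted p under 0.05 in edgeR's quasi-likelihood test with Benjamini-Hochberg adjustment over all genes tested. With all libraries thinned to the smallest 22 rose and 2 fell, where 1647 of all 8009 genes rose and 1646 fell. Without the C1q and lipid-associated macrophage cluster 20 rose and 4 fell, where 2211 of all 10690 genes rose and 1921 fell. The median log2 fold change, MCD over NCD, was 0.44 over the 49 genes and 0.03 over all genes. Without NCD replicate 1, the library with the neutrophil markers, these medians were 0.44 and 0.08. These fold changes rest on TMM scaling, which assumes that most genes keep their level. Scaling by library totals moved the median of all genes up by 0.34, to 0.37. With it 34 of the 49 genes rose and 2 fell, and among all genes the calls were 3796 higher and 1079 lower in place of 2241 and 1959. The levels below are CPM, over the total of the summed cells in each library, so their ratio lies above the fold change by this shift. Levels are not compared between genes, since a 3' tag does not capture every gene equally well.

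**Figure D1:**
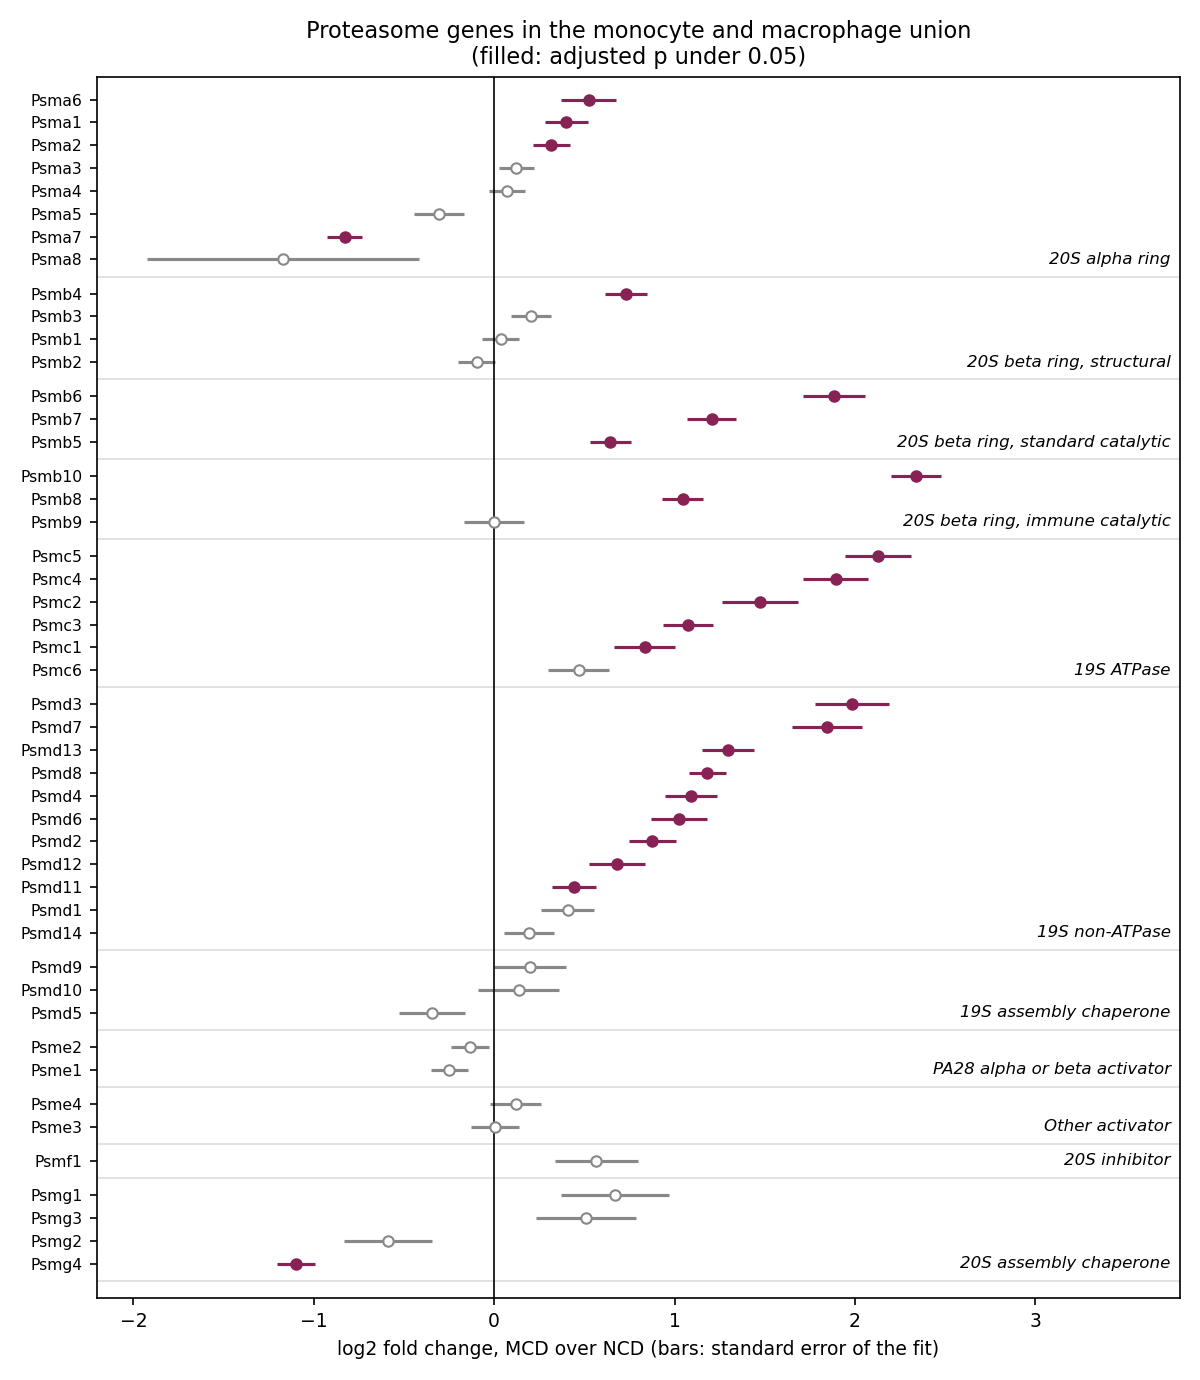
Log2 fold change, MCD over NCD, of each proteasome gene tested in the union, ordered by role, with Psmc3ip and Psme2b left out. Points are edgeR estimates from 2 libraries per diet, bars their standard errors, and filled points have an adjusted p under 0.05. All 3 standard catalytic genes and 14 of 17 subunits of the 19S cap lie to the right of 0 with filled points, while Psma7 and Psmg4 are the filled points to the left.

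Most of the 19S cap rose. Of its 6 ATPases, 5 rose, and of its 11 non-ATPase subunits, 9 rose, with none lower. Psmc5 stood at 12.4 and 10.3 CPM in NCD (19 and 16 UMIs) and at 66.1 and 59.4 in MCD (1461 and 1379 UMIs). The libraries of the diets did not overlap, and the log2 fold change was 2.13 ± 0.18 (SE, adjusted p = 6.0e-05). Psmc4, its neighbour in the ATPase ring, went from 13.7 and 12.9 to 67.4 and 57.5 CPM (log2 fold change 1.89 ± 0.18, adjusted p = 0.000103). Psmc2 went from 12.4 and 22.5 to 65.7 and 57.2, a log2 fold change of 1.48 ± 0.21. Psmc6 was the ATPase that did not pass, at 45.7 and 32.2 in NCD and 70.4 and 65.9 in MCD (adjusted p = 0.0569).

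Among the non-ATPase subunits, Psmd3, a scaffold subunit of the lid, had the largest change, from 8.49 and 11.6 to 54.2 and 46.4 CPM (log2 fold change 1.98 ± 0.21, adjusted p = 0.000153). Psmd7, the partner of the deubiquitinase subunit, went from 14.4 and 12.9 to 67.9 and 55.9 (1.84 ± 0.19). Psmd13, another lid subunit, went from 26.1 and 27.7 to 89.3 and 77.8 (1.30 ± 0.14). In these 3 genes both MCD libraries lay above both NCD libraries. The deubiquitinase itself, Psmd14, stood at 35.3 and 44.4 in NCD and 59.4 and 55.7 in MCD without passing the test (0.19 ± 0.14 on the log2 scale, adjusted p = 0.300). The ubiquitin receptors Psmd4 and Psmd2 had log2 fold changes of 1.09 and 0.88, both rises. The 3 chaperones of 19S assembly, Psmd5, Psmd9 and Psmd10, did not pass, at -0.34 to 0.20.

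The alpha ring of the 20S core moved less and unevenly: of 8 genes, Psma6, Psma1 and Psma2 rose by 0.52, 0.40 and 0.32 on the log2 scale, and Psma7 fell. Psma7 was at 615 and 580 CPM in NCD and 431 and 420.3 in MCD (log2 fold change -0.83 ± 0.10, adjusted p = 0.000321). Its UMIs were numerous, 942 and 902 in the NCD libraries. The structural beta subunits gave 1 rise of 4, Psmb4, at 0.73. The chaperone genes of 20S assembly gave 1 fall of 4: Psmg4 was at 102 and 106 CPM in NCD and 62.8 and 59.8 in MCD (-1.10 ± 0.11, adjusted p = 0.000106). The falls of Psma7 and Psmg4 also passed with library totals, at -0.49 and -0.76. Psmf1, an inhibitor of the 20S core, and the other activators Psme3 and Psme4 did not pass, with log2 fold changes of 0.57, 0.00 and 0.12.

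All 3 standard catalytic subunits rose in the union. Psmb6 went from 36.6 and 25.1 CPM in NCD to 152 and 135 in MCD (log2 fold change 1.88 ± 0.17, adjusted p = 8.24e-05). Psmb7 went from 35.3 and 31.5 to 101 and 93.9 (1.21 ± 0.14, adjusted p = 0.000242). Psmb5 went from 69.9 and 74.6 to 152 and 133 (0.64 ± 0.11, adjusted p = 0.00265). The rise of Psmb5 was lost when the trend of fold change on GC content was taken out (0.04, adjusted p = 0.823).

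The immune subunits did not move together. In the main fit Psmb10 had the largest rise of the 49 genes, with a log2 fold change of 2.34 ± 0.14 (adjusted p = 1.14e-05). It went from 23.5 and 20.6 CPM in NCD (36 and 32 UMIs) to 146 and 136 in MCD (3219 and 3165 UMIs). Over 15 other settings Psmb10 ran from 1.52 to 2.68 and Psmc5 from 1.70 to 2.47, so Psmb10 was not the largest in each. Psmb8 went from 125 and 110.0 to 319.5 and 296 (1.05 ± 0.11, adjusted p = 0.000200). Psmb9 was at 86.8 and 60.5 in NCD and 91.5 and 94.7 in MCD, and its log2 fold change was 0.00 ± 0.17 (adjusted p = 0.991). The lower NCD library of Psmb9 was replicate 2, and without NCD replicate 1 its log2 fold change was 0.34 without passing. The PA28 genes did not pass in the union: Psme1 was at 296 and 268 in NCD and 307 and 295 in MCD (-0.25 ± 0.11, adjusted p = 0.0947), and Psme2 at 167 and 149 in NCD and 186 and 179 in MCD (-0.13 ± 0.11, adjusted p = 0.356). Their calls depended on the setting. With library totals the values turned to 0.09 and 0.21 without passing, while both genes passed as falls in 4 of 15 other settings: with the GC trend removed (-0.76 and -0.38), without the C1q and lipid-associated cluster (-0.36 and -0.32), at Leiden resolution 0.5 (-0.51 and -0.56) and with the interferon-rich clusters added (-0.48 and -0.52). Psme2b, a copy of Psme2 elsewhere in the genome, did not pass (-0.40), and how reads of the pair were divided is not known.

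**Figure D2:**
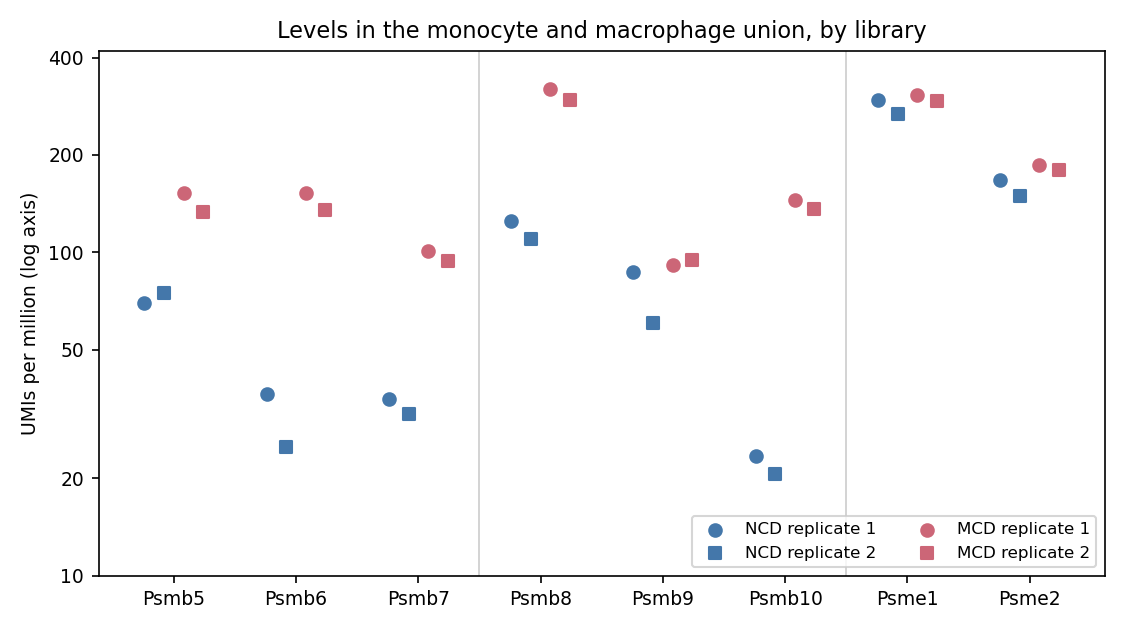
CPM (log axis) of the standard catalytic (left), immune catalytic (middle) and PA28 genes (right) in the union. Each point is 1 library. Both MCD libraries lie well above both NCD libraries for Psmb5, Psmb6, Psmb7, Psmb8 and Psmb10, while Psmb9, Psme1 and Psme2 differ little.

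A ratio of UMIs of an immune gene to the standard gene it replaces does not depend on scaling between libraries. It is not a ratio of proteins, so it was read for its change between libraries and given no test. The exact permutation test of 2 libraries against 2 cannot go below a two-sided p of 0.333. Over all 3 pairs, immune over standard UMIs in the union were 1.66 and 1.46 in NCD and 1.37 and 1.45 in MCD, values that nearly meet. These sums leave out the interferon-rich clusters, which held more cells in NCD than in MCD. The single pairs parted in opposite directions. Psmb9 over Psmb6 was 2.38 and 2.41 in NCD and 0.602 and 0.699 in MCD, 0.272-fold on average. Psmb10 over Psmb7 was 0.667 and 0.653 in NCD and 1.44 and 1.45 in MCD, 2.19-fold. Psmb8 over Psmb5 was 1.79 and 1.47 in NCD and 2.10 and 2.22 in MCD, 1.32-fold. With Psme1 and Psme2 counted among the immune genes the ratio was 4.93 and 4.64 in NCD and 2.59 and 2.76 in MCD. Such ratios are not free of the trend of fold change on GC content. That trend ran from -0.41 on the log2 scale at 31.2% GC to 0.75 at 56.6%. GC at the transcript end was 58.2% for Psmb10 but 37.4% for Psmb7. It was close within the other pairs (Psmb9 49.8%, Psmb6 49%, Psmb8 53.6%, Psmb5 53.8%). The ratio was not recomputed with this trend removed, and the part of GC content in the change of Psmb10 over Psmb7 was not tested. The gene fits of the union were repeated under 15 other settings, among them the removal of the GC trend. Over these the log2 fold change was 1.52 to 2.68 for Psmb10 and 0.97 to 1.55 for Psmb7.

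The opposite movement was also seen by cell class. In 9 groups of cells, named or unnamed, every library had at least 20 cells. Psmb9 over Psmb6 was defined in all 4 libraries in 7 of them, and both MCD libraries lay below both NCD libraries in 7. Psmb10 over Psmb7 was defined in 8, and both MCD libraries lay above both NCD libraries in 7. In the exception, the unnamed low-UMI cluster, the NCD ratios rested on 3 over 1 and 1 over 4 UMIs and enclosed those of MCD. Psmb8 over Psmb5 was higher in both MCD libraries in 7 of 9. Over all 3 pairs, both MCD libraries lay above both NCD libraries in 3 of the 9 groups and below them in 0. With Psme1 and Psme2 counted among the immune genes they lay below in 8 and above in 0. In Ly6Chi-like cells Psmb9 over Psmb6 was 2.06 and 2.86 in NCD (104 and 85 UMIs of the pair) and 0.669 and 0.736 in MCD. In endothelial-like cells, which are not myeloid, it was 2.61 and 1.54 in NCD and 0.908 and 0.920 in MCD. These groups share their libraries and are not replicates of the diet. The part of GC content in Psmb10 over Psmb7 was not tested in them either.

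**Figure D3:**
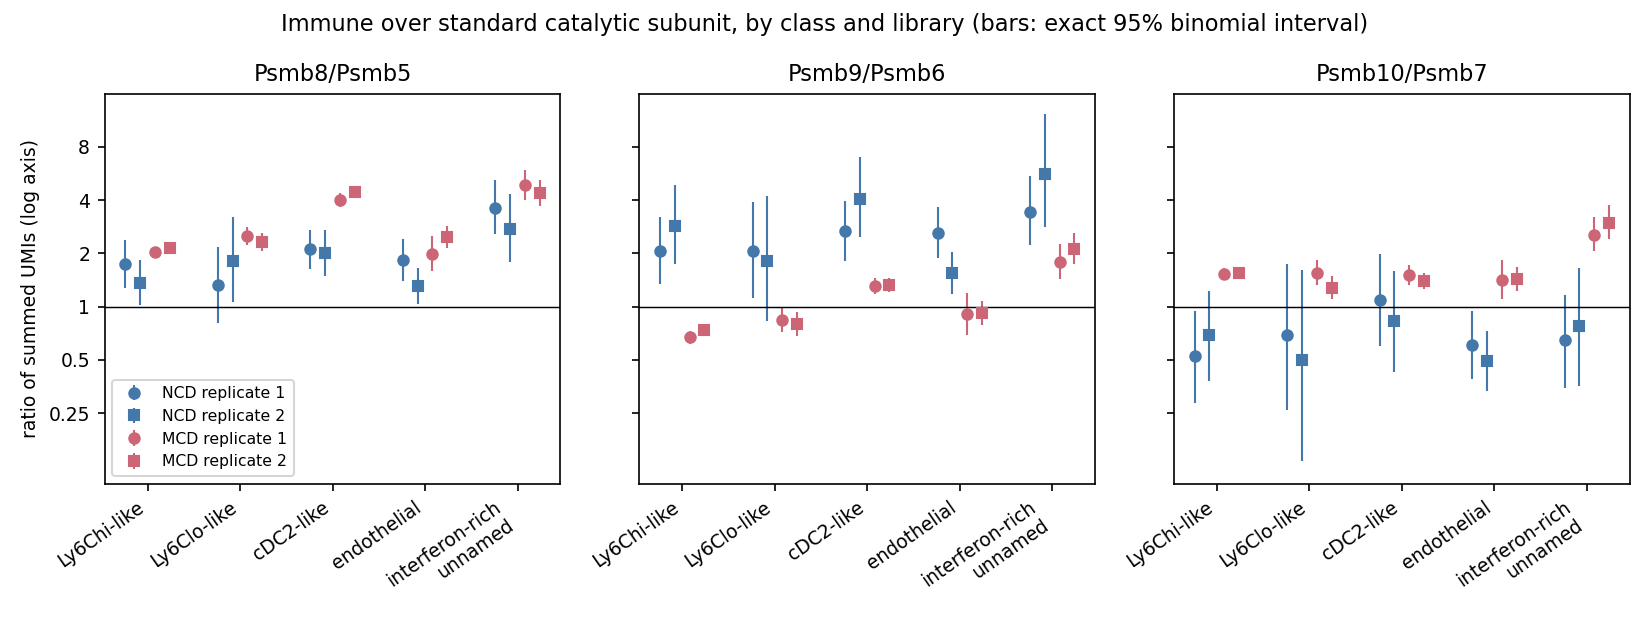
Ratio of summed UMIs (log axis) of each immune catalytic gene to the standard gene it replaces, by cell class. Each point is 1 library with its exact (Clopper-Pearson) 95% binomial interval, which covers counting error only. The MCD points lie below the NCD points in all 5 classes for Psmb9 over Psmb6 and above them in all 5 for Psmb10 over Psmb7.

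The diet effect was then fitted by class. In Ly6Chi-like monocytes (429 and 455 NCD cells, 818 and 1075 MCD cells) 18 of 48 genes rose (37.5%; 15.8% of all genes) and 6 fell (12.5%; 14.4% of all genes). In Ly6Clo-like monocytes (154 and 179 against 225 and 258 cells) 15 of 47 rose (31.9%; 12.9% of all genes) and 1 fell (2.13%; 11.7% of all genes). In type 2 dendritic cell-like cells (cDC2) 17 of 47 rose (15.6% of all genes) and 4 fell (15.2% of all genes), and in endothelial-like cells 17 of 47 rose (16.4% of all genes) and 1 fell (13.6% of all genes). The last pair of fits, with those of migratory dendritic cell-like and NK-like cells, was added after the class sizes were known. In all 4 of the larger classes 13 of 47 genes rose: Psmb6, Psmb7, Psmb8, Psmb10, Psmc2, Psmc3, Psmc4, Psmc5, Psmd3, Psmd4, Psmd7, Psmd8 and Psmd13. The share of all genes that rose in all 4 was not computed, and the classes share their libraries. Over all retained cells, a sum that needs no class names, 29 of 49 rose (26.2% of all genes) and 2 fell (23% of all genes).

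**Figure D4:**
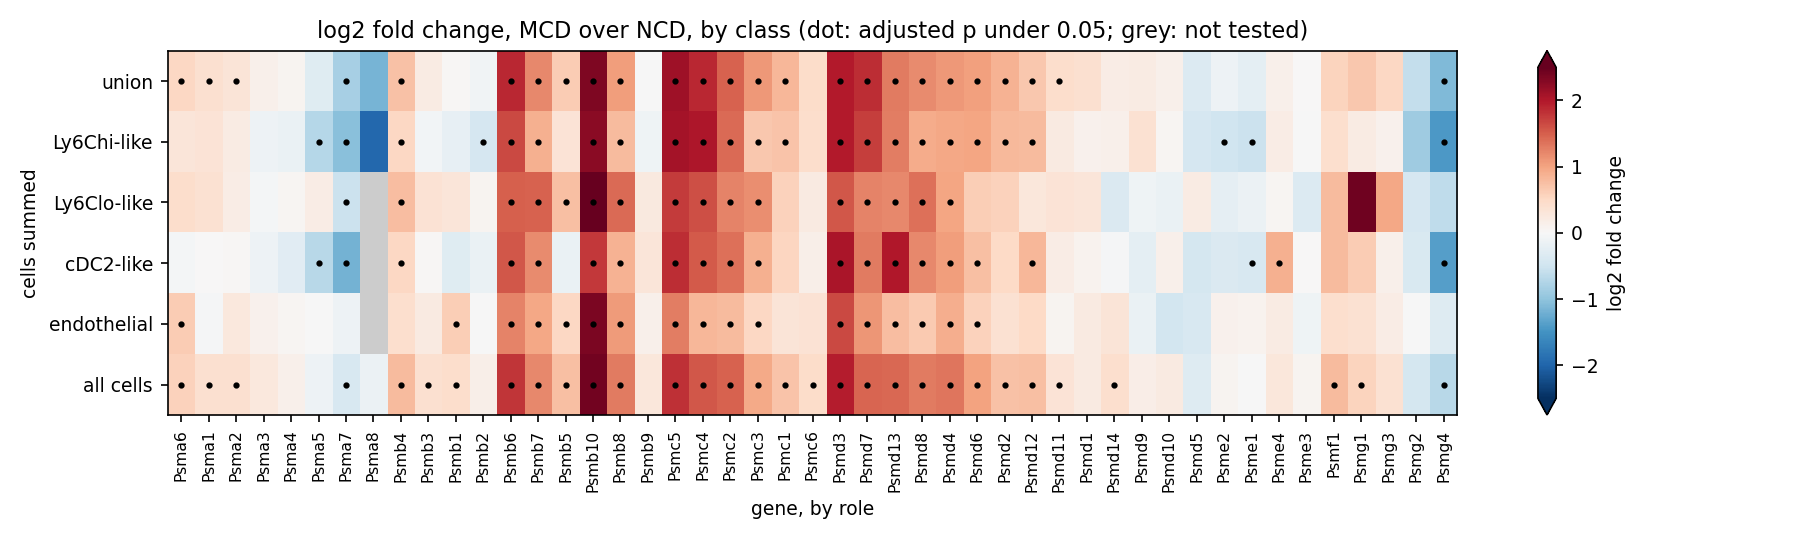
Log2 fold change, MCD over NCD, of each gene (columns, by role) in 6 sums of cells (rows). Black dots mark an adjusted p under 0.05 and grey cells were not tested. The columns of Psmb10, Psmb6, Psmc5 and Psmd3 are dark red with a dot in all 6 rows, and the Psmb9 column has no dot.

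Psmb10 rose in each of the 4 classes, by 1.77 (cDC2-like) to 2.68 (Ly6Clo-like) on the log2 scale, and Psmb6 by 1.23 to 1.65. The NCD values of Psmb10 rest on 9 and 5 UMIs in Ly6Clo-like cells and on 26 and 19 in cDC2-like cells. Psmb5 passed as a rise in Ly6Clo-like and endothelial-like cells but not in Ly6Chi-like or cDC2-like cells (-0.16 to 0.76 over the 4). Psmb9 passed in none of these 4 fits (-0.11 to 0.30). In migratory dendritic cell-like cells, where 10 of 43 genes rose (4.63% of all genes) and 0 fell (3.81% of all genes), Psmb9 rose by 0.99 ± 0.29 (adjusted p = 0.0273). Its NCD value there rests on 15 and 9 UMIs in 39 and 21 cells. Other rises there rest on fewer NCD UMIs, 2 and 0 for Psmb10, 5 and 0 for Psmb6 and 2 and 1 for Psmb5. Psmd3 was fitted at 8.08. Genes so low in NCD could enter the test through the deeper MCD libraries, so this count of rises is weak. In NK-like cells 2 of 23 genes rose, Psmb8 and Psmb10 (8.44% of all genes), and Psma7 and Psmg4 fell (12.4% of all genes). Psmb10 had 2 and 2 UMIs in the NCD libraries there.

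In Ly6Chi-like monocytes both PA28 genes passed as falls after TMM scaling, Psme1 with -0.54 ± 0.12 (adjusted p = 0.00514) and Psme2 with -0.49 ± 0.12 (adjusted p = 0.00944), but not with library totals (-0.07 and -0.02). Their CPM levels were close: Psme1 was at 300.4 and 269 in NCD and 275 and 268 in MCD. Without NCD replicate 1 neither passed. In Ly6Clo-like monocytes they had -0.15 and -0.22 and did not pass.

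The difference between the diet effects of the classes was tested by a class-by-diet term on 8 sums with the library as a block. Of 47 genes, 3 passed (6.38%), all with a lower value in Ly6Chi-like than in Ly6Clo-like cells (3.26% of all genes), and 0 passed in the other direction (1.29% of all genes). Psma5, an alpha ring subunit, was at 142 and 139 CPM in NCD and 133 and 105 in MCD in Ly6Chi-like cells, and at 107 and 60.9 in NCD and 135 and 99.3 in MCD in Ly6Clo-like cells. The difference was -0.91 ± 0.21 (adjusted p = 0.00610). Psma7 differed by -0.50 ± 0.12 (adjusted p = 0.0101) and Psmg4 by -0.80 ± 0.24 (adjusted p = 0.0420). With library totals 0 of the 47 passed, where 305 of all 8247 genes did. The median of the term over the genes was -0.14, and -0.20 to -0.09 with 1 library left out. Neither the immune nor the standard catalytic genes passed this test, Psmb8 coming nearest (-0.62 ± 0.20, adjusted p = 0.0661).

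Psmb8, Psmb9, Psme1 and Psme2 had their highest levels outside the classes named as monocytes. Among classes with at least 20 cells in both MCD libraries, Psmb8 was highest in migratory dendritic cell-like cells (1121 and 1132 CPM), then in the unnamed cluster 14 (783 and 846), whose leading genes hold both dividing-cell (Top2a, Stmn1) and neutrophil genes (Camp, S100a8), in unnamed interferon-rich cells marked by Cxcl9 and Ifit genes (678 and 607) and in cDC2-like cells (553 and 540.0), and these 4 did not overlap. In Ly6Clo-like and Ly6Chi-like monocytes (331 and 279, 307 and 282) the libraries overlapped, and endothelial-like cells had 209 and 254. In MCD, Psmb9 and Psme1 had the same top class, at 336 and 423 and at 720 and 778 CPM, and Psmb9 in cluster 14 was just below (334 and 327). In NCD, the highest Psmb8 levels, in cluster 14, interferon-rich and migratory dendritic cell-like cells, overlapped (165 to 310.1). In NCD, Psme1 was again highest in migratory dendritic cell-like cells (783 and 741), where the diets overlapped. In the interferon-rich cells immune over standard UMIs were 2.66 and 2.62 in NCD and 3.11 and 3.24 in MCD, above those of either monocyte class. A high ratio was not particular to them: in MCD it was higher still in both libraries of the migratory dendritic cell-like cells.

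**Figure D5:**
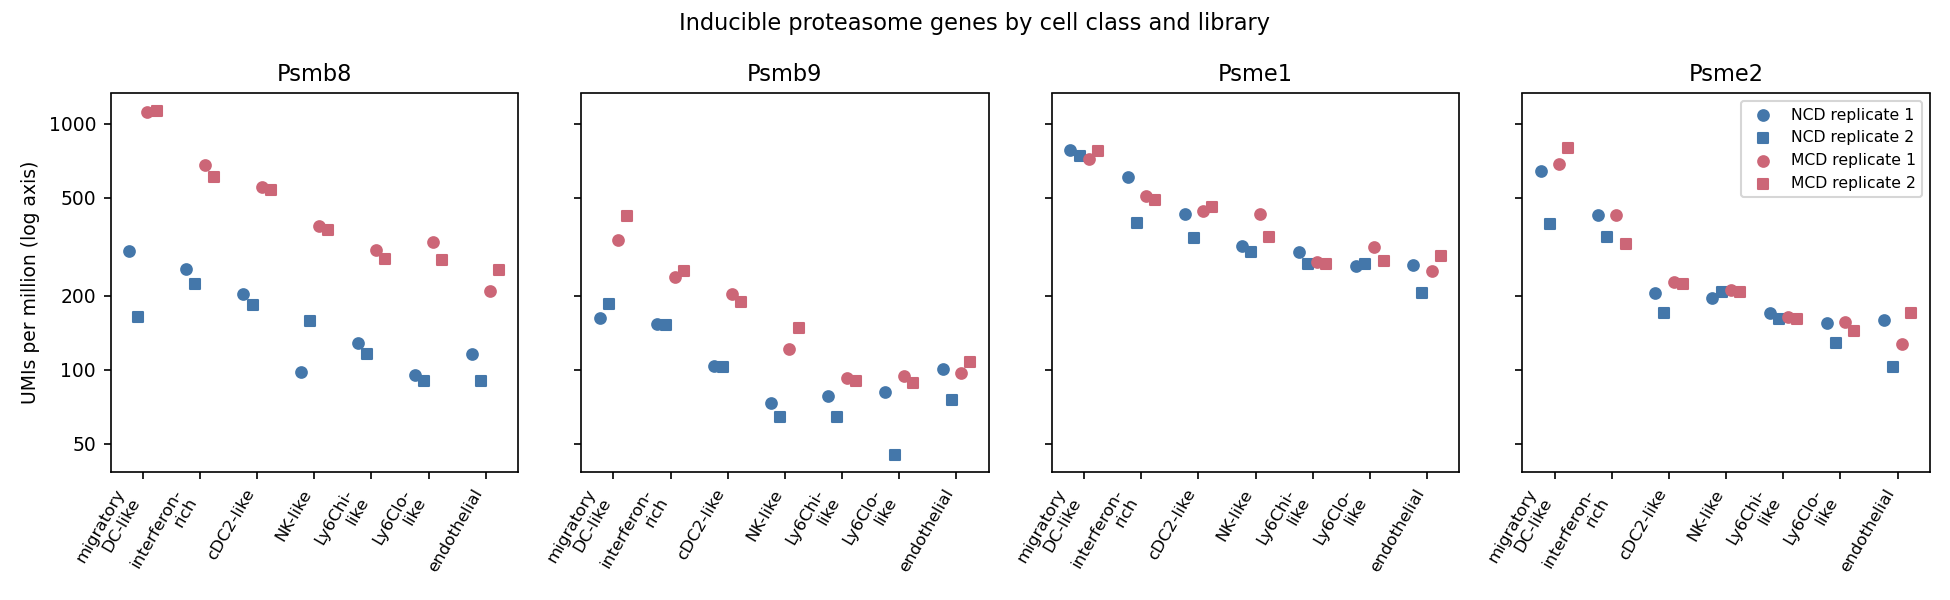
CPM (log axis) of Psmb8, Psmb9, Psme1 and Psme2 by cell class. Each point is 1 library. MCD points lie above NCD points for Psmb8 in all 7 classes, and for Psme1 the migratory dendritic cell-like points are highest, between 720 and 783.

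Genes that act with the proteasome were read from 4 lists. Among 12 partners in the MHC class I pathway, 5 rose and 2 fell in the union, with a median log2 fold change of 0.18. For this and the next 3 lists, the shares over all genes are those of the union, 20.1% higher and 17.6% lower, and the median over all genes is 0.03. The peptide transporter genes Tap1 and Tap2 rose by 0.98 and 1.53, and the class I heavy chain gene H2-D1 by 0.86. B2m, the light chain, fell by 1.08 and passed. H2-K1, another heavy chain gene, fell by 0.33 after TMM scaling, while its CPM levels overlapped, at 1458 and 1306 in NCD and 1404 and 1375 in MCD. Tap1 and Tap2 lie on chromosome 17 beside Psmb9 and Psmb8. Tap1 went from 43.7 and 38.6 CPM to 109 and 96.3, while Psmb9, whose gene overlaps its start on the opposite strand, did not pass.

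Of 17 genes of the interferon gamma response, 1 rose and 6 fell, with a median of -0.22. The interferon-rich clusters, with more cells in NCD than in MCD, were not in the union. The transcription factor gene Irf1 rose by 0.80. The GTPase genes Iigp1 and Gbp4 fell by 3.59 and 1.55, and the chemokine gene Cxcl9 by 1.46. The libraries of Cxcl9 were far apart within a diet, at 43.7 and 19.3 in NCD and 18.6 and 10.6 in MCD.

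Of 18 partners, receptors and regulators of the proteasome, 6 rose and 1 fell. The ubiquitin receptor gene Adrm1 rose by 1.28, Zfand2a, a stress-inducible partner of the 19S cap, by 1.42, and Txnl1, a thioredoxin of the 19S cap, by 1.04. Shfm1, the small lid subunit now called Sem1, fell by 1.30. The regulator Nfe2l1 was at 32.0 and 28.9 CPM in NCD and 30.8 and 36.9 in MCD and did not pass (-0.18 ± 0.18, adjusted p = 0.452). Nfe2l2, another regulator in the list, was among the 6 that rose, and its part in the proteasome genes was not tested. Pomp, the chaperone that matures the 20S core, did not pass either (-0.21).

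Of 10 ubiquitin and ubiquitin-activating genes, 2 rose, about the share over all genes, and 3 fell. The polyubiquitin gene Ubb rose by 1.54. Rps27a, in which ubiquitin is fused to a ribosomal protein, went the other way, by -1.65, and Uba3, part of the enzyme that activates NEDD8, by -0.999. Over all deposited barcodes, before any cell was left out, ribosomal protein genes as a whole took 21.9% to 24.8% of UMIs in NCD. They took 17.6% in both MCD libraries, and these shares are not those of the union. Reads of these genes can match pseudogene copies, and how they were assigned is not known.

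Fold change in the union rose with GC content. The trend fitted across genes ran from a log2 fold change of -0.41 at 31.2% GC to 0.75 at 56.6%. Across the 49 genes, Spearman's rho between the GC content of the last 500 transcript bases and the log2 fold change was 0.287 (Pearson's r 0.285), against 0.376 across 11104 genes. These are correlations across genes, which share the libraries and are not independent. With the GC trend taken out 23 genes rose and 5 fell, where 1733 of all 11129 genes rose and 1750 fell. Of the 23 genes that rose in the union, 16 did so under each of 15 other settings, Psmb10, Psmb8, Psmb6 and Psmb7 among them. Psma7 and Psmg4 fell under each. How many of all genes kept their calls under each setting was not counted.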

How the data were processed

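The deposited data were UMI counts per gene and cell barcode for 4 libraries, made by the authors with Cell Ranger 3.0.2 per the file headers and on the mm10 build per the submitters' processing notes. The counts are raw, and any filter of the authors is not given in the sources. Totals per library were 7518597 and 7428431 UMIs in NCD and 32975974 and 37772284 in MCD, so NCD values of low genes rest on few UMIs. The 27998 genes present in all libraries were used. The file of MCD replicate 1 lists 27998 genes, those of the other libraries 28692. Libraries shared 4 to 12 barcodes per pair.

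Kept were 9617 cells, with a minimum of 200 genes and a mitochondrial share of 10% or less. No doublet caller was run, so doublets remain. Cells were clustered in scanpy 1.11.5 without the 50 genes (2000 variable genes, 30 principal components, 15 neighbours, Leiden resolution 1.0), and clusters were named from marker lists. The form of the neighbour graph was picked from 3, before any proteasome value was computed, and the naming rules were settled after the clusters were seen. The members and lists were chosen with earlier results of these data known.

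UMIs were summed per class and library and tested with edgeR 4.0.16 (quasi-likelihood F test, TMM scaling, its low-count filter, Benjamini-Hochberg adjustment over all genes tested, threshold 0.05). All adjusted p-values come from it unless DESeq2 1.42.0, an alternative, is named. In simulated counts for the union, 49% of 100 genes changed by 1 on the log2 scale and 82% of 100 changed by 2 were recovered. Replicate numbers did not pair the libraries. Alternatives were another scaling, no low-count filter, thinning, a replicate block, a GC trend, other clusters in a class and each library left out. Named genes were the 8 of the immune and standard contrast, the 6 largest rises and falls past the threshold, class-by-diet calls and up to 3 rises and falls per companion list. Other genes were named by role after their values were seen. Some genes that the rule names are not reported here. Binomial intervals are exact 95% and cover counting error only.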

Additional observations from a re-analysis of the deposited data

Results flagged for a closer look

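The diet effect on 3 proteasome genes differed between Ly6Chi-like and Ly6Clo-like monocytes in the class-by-diet test of edgeR's quasi-likelihood fit. The log2 fold change in Ly6Chi-like minus that in Ly6Clo-like cells was -0.91 for Psma5, -0.50 for Psma7 and -0.80 for Psmg4. Psma5 fell in Ly6Chi-like cells and did not pass in Ly6Clo-like cells, where its NCD libraries were at 107 and 60.9 CPM. Psma7 was lower under MCD in both classes. Each of the 3 calls was lost under at least 3 of 8 other settings.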

How the results depend on the processing

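Diet cannot be told apart from depth, mitochondrial share or shared preparation, and 2 libraries per diet limit precision. Over the other settings, 96 values of the summary results stayed within 1.5 times or the replicate spread and 26 did not. With 1 library left out, the lone library of a diet is assumed to vary like those of the other. The planned C1q macrophage fit, and equal weights over 3 classes, were not run for want of MCD cells. Equal weight over Ly6Chi-like and Ly6Clo-like cells took its place after the data were seen. In the union, falls among the 50 genes numbered 5 with the GC trend removed, 4 without the C1q and lipid-associated cluster, 7 at Leiden resolution 0.5 and 6 with the interferon-rich clusters added. Falls among all genes tested in these settings were 1750 of 11129, 1921 of 10690, 2125 of 11267 and 2048 of 11297. The interferon-rich setting was chosen after seeing the data. In Ly6Chi-like monocytes library totals gave 31 rises and 2 falls, where 3599 of all 10110 genes rose and 669 fell. With 1 library left out the median log2 fold change over the proteasome genes there was 0.17 to 0.35. In Ly6Clo-like monocytes library totals gave 23 rises and 0 falls, where 1944 of all 8255 genes rose and 532 fell. RLE size factors gave 2 falls there (1014 of all 8255 genes) and thinning 0 (751 of all 4963 genes). With 1 library left out the median there was 0.35 to 0.60. In all cells no low-count filter gave 1 fall (2812 of all 18161 genes). With 1 library left out the median in all cells was 0.37 to 0.53. The class-by-diet test gave 0 lower genes with library totals (108 of all 8247 genes) and 1 after thinning (107 of all 4659 genes). The immune over standard ratio, MCD over NCD, was 0.906, and 0.806 with interferon-rich clusters, 0.786 at resolution 0.5 and 0.559 with PA28. Leaving out NCD replicate 1 or 2 cut calls over all genes in the union from 4200 to 2720 or 2511. The cause of these changes was not tested.

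The following values have the opposite sign to the main value and did not pass, although other settings called some of these genes. Psmb9 in the union was 0.34 with library totals, 0.089 with no filter, 0.060 thinned, 0.11 with equal class weights and -0.24 to 0.34 with 1 library left out (0.34 without NCD replicate 1). Psme1 and Psme2 were 0.093 and 0.21 with library totals, and Psme2 was -0.21 to 0.0086 with 1 library left out, the highest without NCD replicate 1. In Ly6Chi-like cells Psmb9 was 0.36 with library totals and -0.27 to 0.12 with 1 library left out. In Ly6Clo-like cells it was -0.12 (without NCD replicate 2) to 0.75 (without NCD replicate 1). In Ly6Clo-like cells Psme1 and Psme2 were 0.15 and 0.083 with library totals. Other settings called falls: Psme1 and Psme2 in the union under 4 of 15 settings each, down to -0.76 and -0.56, and Psmb9 in Ly6Chi-like cells with interferon-rich clusters added, at -0.38, just under the threshold.

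Replicate numbers were shared between diets, but replicate differences did not correlate (r = 0.027 across 11129 genes), so the numbers were not taken as pairs. With the replicate block the union had 25 rises and 3 falls, where 2414 of all 11129 genes rose and 2114 fell, and Psmb9 was 0.0043. Falls with the block numbered 2 in Ly6Clo-like cells (1124 of all 8255 genes) and 4 in all cells (3418 of all 12742 genes).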
